A study of Schizosaccharomyces pombe with 3 samples.

Results

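Tandem intergenic regions are the gaps between 2 neighbouring protein-coding genes that are read in the same direction, so that each gap has the stop of one gene at one end and the start of the next gene at the other. They were taken from the fission yeast reference ASM294v3 on chromosome II, from base 999111 to 1596720 and from base 1648260 to 3048020, wherever at least 1 array probe had its middle between 2 genes that do not overlap. This gave 337 tandem regions with 3503 probes, out of 638 gaps between neighbouring protein-coding genes in the same stretch. The other gaps were 216 divergent ones, which lie between 2 gene starts, and 85 convergent ones, which lie between 2 gene stops. Values of regions use the 268 tandem regions with at least 4 usable probes and at least 2 in each end, and the other 69 are described once on their own. A region is named by its genes, the one whose stop faces the gap first and the one whose start faces it second, so that in yea4 to mas5 the gap runs from the stop of yea4 to the start of mas5. Start and stop here mean the annotated edges of a gene, untranslated parts included.

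Chromatin immunoprecipitation with an antibody against histone H3 acetylated at lysine 9 (H3K9ac) was hybridised to 60-base tiling arrays for 3 strains of Schizosaccharomyces pombe. They were alp13∆, which lacks the chromodomain protein Alp13 of a histone deacetylase complex, asf1-1, with a mutant form of the H3 and H4 chaperone Asf1, and wild type. All cultures grew exponentially in rich medium at 30 °C, fixation took place at 18 °C with 3% paraformaldehyde, and chromatin was sheared to pieces of 500 to 1000 bp. Each strain had 1 array. Neither a total histone H3 array nor an antibody-free array was analysed here, so the amount of H3 and its acetylation cannot be told apart, and only the labels tie an array to its strain.

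A level is the log2 ratio of Cy5 (immunoprecipitated DNA) to Cy3 (whole-cell extract DNA of the same strain), with the median of each array set to 0, averaged over the probes of a region or of one of its ends. A change is a mutant's level minus that of wild type. It is therefore relative to the middle of each array, and the sign of a median change turns with another centring, as given below. With 1 array per strain there is no replicate error and no test, and every comparison below is a description of 3 arrays. The only measure of error came from 239 probes of chromosome II that are present a further time on a short extra contig: the SD of 1 probe's level was 0.165 in alp13∆, 0.136 in asf1-1 and 0.126 in wild type, and for a change it was 0.133 in alp13∆ and 0.0768 in asf1-1. Over all probes the median Cy5 intensity was 1808 to 2101 and the median Cy3 intensity 1619 to 1811 on the 3 arrays, 93 to 213 probes per array were not well above background, and none was saturated.

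H3K9ac is placed by acetyltransferases such as Gcn5 and removed by histone deacetylases, and in yeasts it is known for marking the promoters and the first nucleosomes of active genes. The deacetylase complex that holds Alp13, known as Clr6 complex II, acts on transcribed gene bodies, and Asf1 hands newly made H3 and H4 to chromatin. A tandem gap is a place where a terminator and a promoter lie side by side, so an end of such a gap can be set against the other within the same stretch of DNA.

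The sequences shown are the 300 bases next to the gene start in the gaps that, among regions with at least 6 probes, lie at both extremes of the difference between the ends in wild type, read 5′ to 3′ toward the downstream gene, from ASM294v3. Capitals mark runs of at least 6 A or 6 T, which are known in yeasts as stiff DNA that nucleosomes avoid. The first 2 had the start end far above the stop end in wild type, the other two the stop end far above the start end.
sol1 to ldb1 (chrII:1306048-1306347, reverse strand): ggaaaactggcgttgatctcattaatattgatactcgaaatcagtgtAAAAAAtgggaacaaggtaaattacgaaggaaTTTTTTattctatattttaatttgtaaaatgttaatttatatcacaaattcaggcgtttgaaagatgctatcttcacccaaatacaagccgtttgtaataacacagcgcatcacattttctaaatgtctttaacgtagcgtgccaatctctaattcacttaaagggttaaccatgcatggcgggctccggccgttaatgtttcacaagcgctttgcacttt
mat3-Mc to emc3 (chrII:2138019-2138318, forward strand): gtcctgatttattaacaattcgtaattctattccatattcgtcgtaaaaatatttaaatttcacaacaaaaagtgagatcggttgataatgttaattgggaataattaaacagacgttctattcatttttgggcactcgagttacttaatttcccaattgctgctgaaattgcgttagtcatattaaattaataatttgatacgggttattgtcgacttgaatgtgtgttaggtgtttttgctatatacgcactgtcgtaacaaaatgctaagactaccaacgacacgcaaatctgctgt
Tf2-10 to knh4 (chrII:1970307-1970606, forward strand): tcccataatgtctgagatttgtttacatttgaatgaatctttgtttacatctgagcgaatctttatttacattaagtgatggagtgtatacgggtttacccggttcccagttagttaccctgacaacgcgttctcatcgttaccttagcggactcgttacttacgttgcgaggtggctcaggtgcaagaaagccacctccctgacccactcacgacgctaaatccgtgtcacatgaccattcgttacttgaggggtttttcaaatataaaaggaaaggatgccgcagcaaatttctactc
qcr10 to rsv1 (chrII:2888150-2888449, forward strand): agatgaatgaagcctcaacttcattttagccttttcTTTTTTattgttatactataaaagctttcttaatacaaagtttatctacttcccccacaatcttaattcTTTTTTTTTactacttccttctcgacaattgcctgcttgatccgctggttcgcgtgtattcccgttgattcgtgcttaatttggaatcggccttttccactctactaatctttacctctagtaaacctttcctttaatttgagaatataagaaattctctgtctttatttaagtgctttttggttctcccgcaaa

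The next 4 are the gaps at both extremes of the change in alp13∆ among regions with at least 6 probes, the first 2 highest and the other two lowest, printed in the same way. They are shown because their changes are described below. Over all 268 regions the change ran from -2.55 to 1.11, and some regions with fewer probes lay beyond those shown.
mrd1 to ist2 (chrII:1432907-1433206, reverse strand): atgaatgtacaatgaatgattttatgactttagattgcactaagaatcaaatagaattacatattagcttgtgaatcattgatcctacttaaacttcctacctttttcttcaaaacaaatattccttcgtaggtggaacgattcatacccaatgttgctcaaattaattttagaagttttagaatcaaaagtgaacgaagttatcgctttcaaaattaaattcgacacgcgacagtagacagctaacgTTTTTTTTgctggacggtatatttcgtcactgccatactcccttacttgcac
pho7 to tom7 (chrII:1344269-1344568, reverse strand): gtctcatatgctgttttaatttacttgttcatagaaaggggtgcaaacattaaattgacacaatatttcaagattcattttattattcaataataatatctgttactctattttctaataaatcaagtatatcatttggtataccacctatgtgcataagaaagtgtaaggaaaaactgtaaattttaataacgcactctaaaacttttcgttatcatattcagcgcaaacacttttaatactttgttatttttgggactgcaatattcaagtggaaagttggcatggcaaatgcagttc
cdh1 to efc25 (chrII:2739372-2739671, forward strand): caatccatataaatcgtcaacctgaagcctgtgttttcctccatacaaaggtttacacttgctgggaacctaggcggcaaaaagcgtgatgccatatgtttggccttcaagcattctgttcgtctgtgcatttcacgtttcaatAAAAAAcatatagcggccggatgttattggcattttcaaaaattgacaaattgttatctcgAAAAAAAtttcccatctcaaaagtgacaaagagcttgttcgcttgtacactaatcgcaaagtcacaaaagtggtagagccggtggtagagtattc
sua1 to mgr2 (chrII:1570920-1571219, reverse strand): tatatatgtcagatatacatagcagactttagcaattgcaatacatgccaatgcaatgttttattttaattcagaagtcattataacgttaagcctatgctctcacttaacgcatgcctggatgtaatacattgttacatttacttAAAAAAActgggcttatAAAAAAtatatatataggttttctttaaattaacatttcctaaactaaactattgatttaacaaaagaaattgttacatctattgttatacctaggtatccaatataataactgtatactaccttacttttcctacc

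Across these 8 stretches the GC content ran from 27.3% (sua1 to mgr2) to 43.7% (Tf2-10 to knh4), and the longest run of A or T was 9 bases, in qcr10 to rsv1. The letters TATAAA, searched on both strands, stand in the 300 bases of sol1 to ldb1, Tf2-10 to knh4, qcr10 to rsv1, cdh1 to efc25 and sua1 to mgr2. In pho7 to tom7 they stand elsewhere in the gap, outside the printed bases.

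In all strains the ends of most tandem regions lay less than 1.5-fold apart, and the start end was above the stop end by a little in the median. The median start end lay at -0.44 in alp13∆, 0.25 in asf1-1 and 0.54 in wild type. The median stop end lay at -0.41 in alp13∆, 0.19 in asf1-1 and 0.42 in wild type. The difference, start end minus stop end, had a median of 0.02 in alp13∆, 0.05 in asf1-1 and 0.05 in wild type. On Cy5 alone it was 0.15 in alp13∆, 0.22 in asf1-1 and 0.22 in wild type. Cy5 alone sets different probes side by side without their Cy3, so a Cy3 difference between the ends enters it. The quartiles of the log2 ratio difference were -0.14 and 0.15 in alp13∆, -0.08 and 0.17 in asf1-1, and -0.08 and 0.19 in wild type. The start end was the higher one in 148 of 268 regions in alp13∆ (55.2%), 161 in asf1-1 (60.1%) and 159 in wild type (59.3%). Measured against the repeat error of the probes in each end, the ends differed by more than 2 errors in 95 regions in alp13∆ (35.4%). There were 104 such regions in asf1-1 (38.8%) and 118 in wild type (44.0%). That error comes from a single repeated stretch and was used for all regions, dim ones included. The same share over all gaps is not given here, so these counts are not read as particular to tandem regions.

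Differences of at least 1.5-fold between the ends were found in 23 regions in alp13∆ (8.58%), 12 with the start end higher and 11 with the stop end higher. In asf1-1 there were 17 such regions (6.34%), 12 and 5 in the same order, and in wild type 28 (10.4%), 20 and 8. Among all gaps of every kind with enough probes, tandem ones included, ends differed by 1.5-fold in 13.2% in alp13∆, 10.6% in asf1-1 and 14.0% in wild type, so tandem regions were below the share of all gaps on each array. That share does not allow for gap length, and counts at like length follow below. Fragments of 500 to 1000 bp are longer than the median tandem region of 385.5 bp (quartiles 253 and 692 bp). How far the ends share fragments was not tested.

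**Figure D1:**
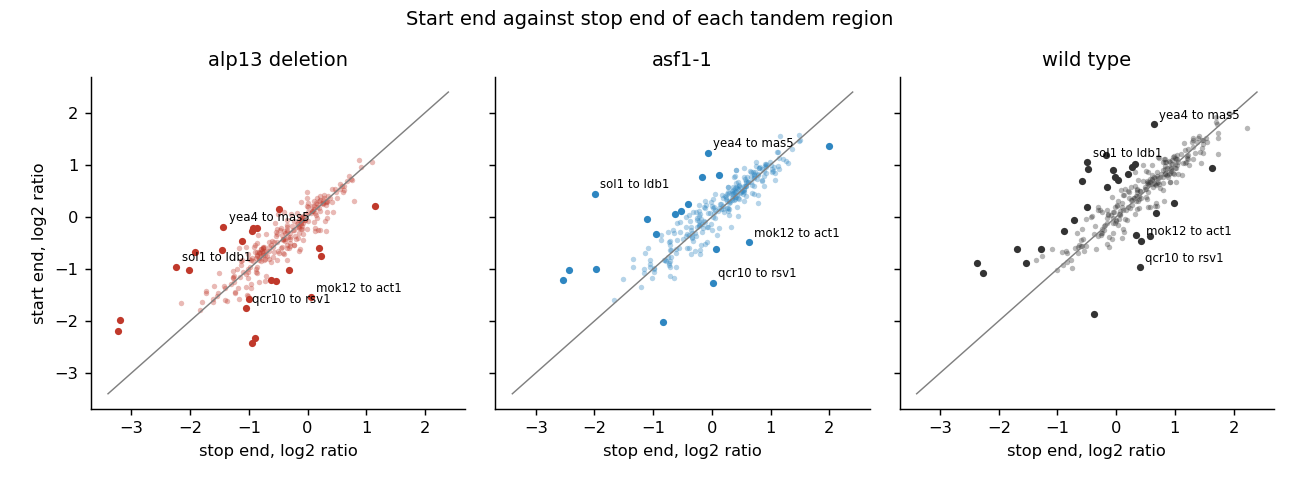
Mean log2 ratio of the start end (vertical axis) against that of the stop end (horizontal axis) of each of the 268 tandem regions, 1 panel per strain. Large dark points are the 23, 17 and 28 regions in alp13∆, asf1-1 and wild type whose ends differed by at least 1.5-fold, the line marks equal ends, and 4 gaps described in the text are named.

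Ends 1.5-fold apart were more frequent in longer gaps, with either end the higher one, and in divergent gaps too. Start end minus stop end had a Spearman rank correlation with length of -0.04 in alp13∆, 0.07 in asf1-1 and 0.07 in wild type. In the same order, the start end was higher in 57.1%, 64.3% and 61.9% of regions of 1000 bp or longer. Under 500 bp it was higher in 60.1%, 59.5% and 60.1%. In the 42 regions of 1000 bp or longer the median difference was 0.07 in alp13∆, 0.13 in asf1-1 and 0.17 in wild type, and the start end was higher by 1.5-fold in 6, 6 and 12 of them while the stop end was higher in 5, 2 and 4. Of 80 divergent gaps that long, the right end was higher by 1.5-fold in 18, 15 and 16 and the left end in 13, 14 and 15. In the 68 regions from 500 bp to under 1000 bp the median difference was -0.06 in alp13∆, 0.07 in asf1-1 and 0.04 in wild type. The start end was higher by 1.5-fold in 5, 4 and 7 of them and the stop end in 4, 2 and 2. Of 68 divergent gaps of that length, the right end was higher in 5, 2 and 4 and the left end in 3, 1 and 2. In the 158 regions under 500 bp the median difference was 0.03 in alp13∆, 0.04 in asf1-1 and 0.04 in wild type, and only 3 regions in each strain had ends 1.5-fold apart.

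The same end was the higher one on all 3 arrays in 163 of 268 regions, 101 with the start end and 62 with the stop end. In 11 regions the ends were 1.5-fold apart in the same direction on all 3 arrays. In 8 of these the start end was higher: yea4 to mas5, sol1 to ldb1, mlo3 to byr2, rpl8 to vps71, rrs1 to gef3, dbp7 to sfc6 and the gaps on both sides of the silent mat3 cassette, mat3-Mi to rpp202 and mat3-Mc to emc3. In 3 the stop end was higher: mok12 to act1, Tf2-10 to knh4 and qcr10 to rsv1. The regions mlo3 to byr2 and rpl8 to vps71 were picked out here after their values were seen, and the others fall under the naming rule.

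The region yea4 to mas5 sloped toward the gene start in all 3 strains. Mas5 is a DnaJ-type Hsp40 co-chaperone, and the gap of 1928 bp (bases 1079447 to 1081374) holds 38 probes, an LTR remnant and 2 annotated lncRNA genes. The end next to the mas5 start averaged -0.19 in alp13∆, 1.24 in asf1-1 and 1.78 in wild type, while the end next to the yea4 stop averaged -1.43 in alp13∆, -0.07 in asf1-1 and 0.65 in wild type. The slope of 1.24, 1.30 and 1.13 in the same order was thus alike in the 3 strains although the whole gap stood 2.02 lower in alp13∆ (change -2.02, SD across probes 0.30). The last 500 bp before mas5 averaged -0.27 in alp13∆, 1.24 in asf1-1 and 1.85 in wild type.

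In sol1 to ldb1 the difference was the largest among regions with at least 6 probes in wild type. The gene ldb1 encodes a LIM domain binding protein, and the gap of 3024 bp (bases 1306048 to 1309071) holds 7 annotated non-coding genes, a snoRNA among them. The start end averaged -0.95 in alp13∆, 0.44 in asf1-1 and 1.05 in wild type. The stop end averaged -2.24 in alp13∆, -1.99 in asf1-1 and -0.49 in wild type. The difference was widest in asf1-1, at 2.44, against 1.29 in alp13∆ and 1.54 in wild type. The change in asf1-1 was -0.61 at the start end and larger at the stop end. In the 500 bp from 2000 to 2499 bp before ldb1, asf1-1 (-2.33) was as low as alp13∆ (-2.39), against -0.48 in wild type.

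The gaps on both sides of the mat3 cassette, a silent copy of mating-type genes kept in heterochromatin, had high and very low stretches side by side. In mat3-Mc to emc3 (4924 bp, 98 probes) the 500 bp before emc3, a subunit gene of an endoplasmic reticulum membrane complex, averaged -0.54 in alp13∆, 0.43 in asf1-1 and 0.58 in wild type. From 3500 to 3999 bp before emc3 the means were -3.72 in alp13∆, -3.12 in asf1-1 and -3.11 in wild type. The 8 probes nearest the cassette were higher again, at -1.16 in alp13∆, -0.03 in asf1-1 and 0.31 in wild type. The cassette is a copy, so probes beside it may also read another copy, which was not tested. On the other side, in mat3-Mi to rpp202 (4118 bp, 81 probes), the 500 bp before rpp202, which encodes a ribosomal stalk protein, averaged -0.84 in alp13∆, 0.55 in asf1-1 and 0.94 in wild type. From 2500 to 2999 bp before it the means were -3.59 in alp13∆, -2.93 in asf1-1 and -2.89 in wild type. In both gaps asf1-1 and wild type thus ran close together over the lowest part, and alp13∆ lay below both all along.

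The other start-high gaps of the naming rule each hold a gene of a structural RNA. In ned8 to trx2, before the thioredoxin gene trx2, and in rrs1 to gef3 there is a tRNA gene, and in dbp7 to sfc6, before the gene for TFIIIC subunit Sfc6, an rRNA gene. In ned8 to trx2 the start end averaged -1.36 in alp13∆, -0.11 in asf1-1 and 0.93 in wild type, and the stop end -1.40, -0.59 and -0.49 in the same order. Its start-end Cy3 was only 99.6 to 126 on the 3 arrays, against 884 to 1009 at the stop end. On Cy5 alone, which carries this Cy3 difference, the wild-type difference turned from 1.42 to -1.44. In dbp7 to sfc6 the difference was 0.64 in alp13∆, 0.93 in asf1-1 and 1.35 in wild type, and it stayed at 1.03 on Cy5 alone in wild type. In rrs1 to gef3 it was 1.24 in alp13∆, 1.06 in asf1-1 and 1.28 in wild type, with Cy3 of 191 to 353 in both ends. Among all 268 regions, 6 hold a tRNA gene, and their median difference was -0.02 in alp13∆, 0.27 in asf1-1 and 0.55 in wild type.

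In the stop-high gaps the end next to the upstream gene was the higher one, though in some it was itself below the array median. In qcr10 to rsv1 (3533 bp, 71 probes), before the gene for the transcription repressor Rsv1, the start end averaged -1.75 in alp13∆, -1.27 in asf1-1 and -0.97 in wild type, and the stop end -1.05, 0.02 and 0.40 in the same order. Its lowest 500 bp in each strain lay from 1000 to 1499 bp before rsv1 in alp13∆ (-1.93) and wild type (-1.23) and in the next 500 bp toward the gene in asf1-1 (-1.46). In mok12 to act1 (673 bp, 14 probes), before the actin gene, the start end averaged -1.54 in alp13∆, -0.49 in asf1-1 and -0.46 in wild type, and the stop end 0.05, 0.63 and 0.42. The actin promoter side was thus below the array median on all 3 arrays. In Tf2-10 to knh4 (1216 bp, 24 probes), where the stop end is that of a Tf2 retrotransposon, the start end averaged -2.33 in alp13∆, -2.02 in asf1-1 and -1.87 in wild type, and the stop end -0.90, -0.83 and -0.37. Tf2 copies are repeated in the genome, so probes near that end can also read other copies.

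The remaining stop-high gaps were pom152 to gas2 and lam1 to SPBC2G5.01. In pom152 to gas2 the difference was -0.59 in alp13∆, -0.38 in asf1-1 and -0.95 in wild type. However, its stop-end Cy3 was 66.6 to 88.3, against 2081 to 2334 at the start end. On Cy5 alone, which carries this Cy3 difference, the wild-type difference read 3.69. In lam1 to SPBC2G5.01, which holds a tRNA gene, the difference was -0.08 in alp13∆, -0.42 in asf1-1 and -0.72 in wild type.

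**Figure D2:**
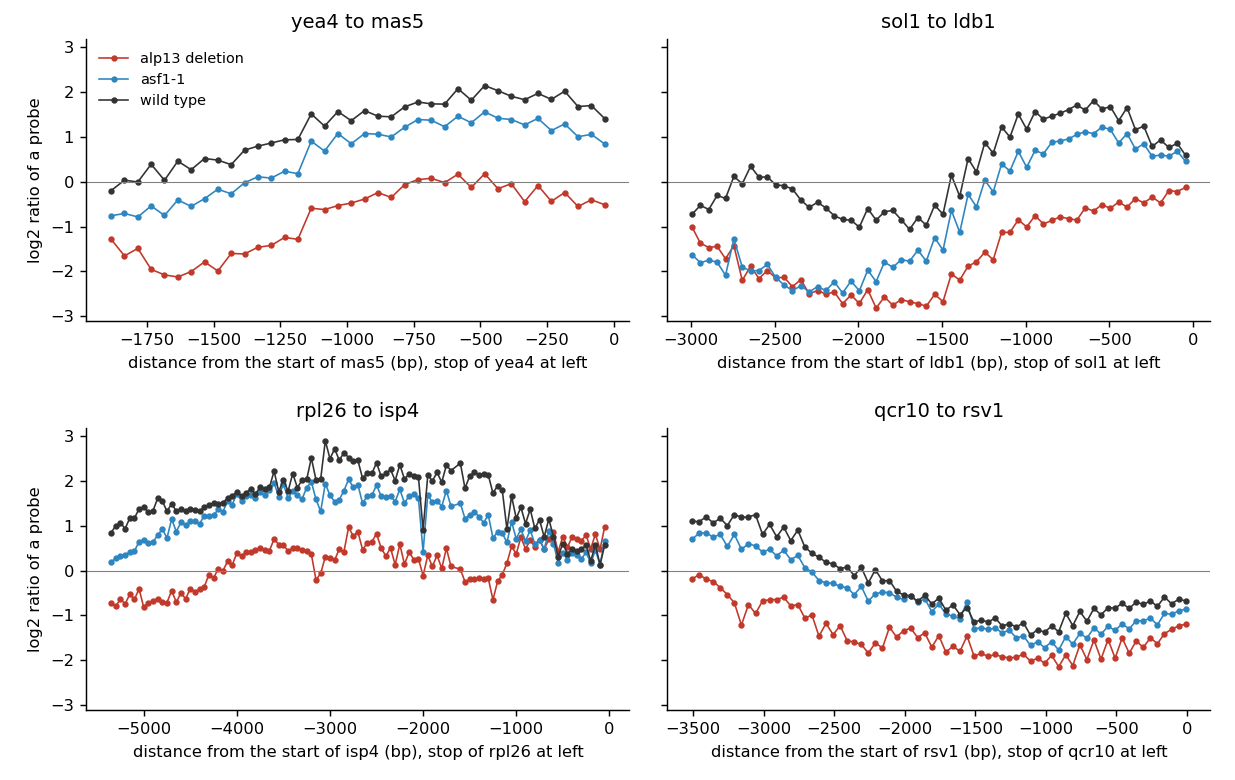
Log2 ratio of each probe in 4 tandem gaps, against its distance in bp before the start of the downstream gene, with the stop of the upstream gene at the left. In yea4 to mas5 the 3 strains slope alike, in sol1 to ldb1 asf1-1 joins alp13∆ in the left part, and in rpl26 to isp4 the strains meet next to the isp4 start. In qcr10 to rsv1 the level falls from the qcr10 stop, is lowest from 500 to 1499 bp before rsv1 and rises again next to the rsv1 start.

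The change in alp13∆ asks where H3K9ac moves when the deacetylase subunit is missing, and tandem regions as a set lay lower, by about the same at both ends. Levels of regions had a median of -0.42 in alp13∆ and 0.45 in wild type, and the median change was -0.85 (quartiles -1.29 and -0.52). Of 268 regions, 191 lay at least 1.5-fold below wild type (71.3%) and 6 above it (2.24%). Over all gaps 76.0% were lower and 1.8% higher, and over all probes of the stretch, genes included, 33.1% were lower and 25.9% higher. The share of tandem regions is close to that of all gaps. Of the 191, 107 were lower by at least 2-fold. The start end was lower by 1.5-fold in 197 regions and the stop end in 183, both in 176. The median change was -0.91 at the start end and -0.79 at the stop end, and the difference of the 2 changes had a median of -0.04.

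These signs depend on the centring. With each array centred on its probes between genes, the median change of tandem regions in alp13∆ was 0.37, with 84 regions higher and 14 lower. In asf1-1 it was 0.15, with 12 higher and 3 lower. Those probes include the probes of the tandem regions, and their median was -0.66 in alp13∆, 0.13 in asf1-1 and 0.56 in wild type. This centring therefore sets tandem regions against gaps in general. With no centring the median change was -0.44 in alp13∆ and -0.12 in asf1-1, both still negative. Differences between ends, between classes of gap and between gap and gene do not move with the centring.

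The 69 tandem regions with fewer probes or a nearly empty end read alike in the direction of change. Their median level was -0.21 in alp13∆, 0.29 in asf1-1 and 0.58 in wild type, and their median change was -0.78 in alp13∆ and -0.28 in asf1-1. Over all 337 regions, 233 were lower and 6 higher by 1.5-fold in alp13∆, and 50 were lower and 0 higher in asf1-1.

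The 5 lowest changes in alp13∆ among regions with at least 6 probes were in cdh1 to efc25, sua1 to mgr2, alp4 to SPBC365.16, SPBC365.04c to rpl2101 and yea4 to mas5. The region cdh1 to efc25 (1612 bp), before the gene for a Ras guanine nucleotide exchange factor, averaged -0.86 in alp13∆, 0.58 in asf1-1 and 1.47 in wild type, a change of -2.34 in alp13∆. The Cy3 of its stop end was 78.3 to 149. The region sua1 to mgr2 (503 bp) averaged -0.97 in alp13∆, 0.38 in asf1-1 and 1.19 in wild type, with Cy3 of 148 to 326 in its ends. The region SPBC365.04c to rpl2101 (371 bp), before a gene of a large-subunit ribosomal protein, averaged -1.16 in alp13∆, 0.16 in asf1-1 and 0.96 in wild type, with Cy3 of 191 to 424. The region alp4 to SPBC365.16 (2532 bp, 50 probes) had ordinary Cy3, 1180 to 1904, and averaged -0.17 in alp13∆, 1.49 in asf1-1 and 1.96 in wild type. It was level from end to end: its 500-bp steps ran from -0.35 to 0.12 in alp13∆, 1.38 to 1.56 in asf1-1 and 1.75 to 2.10 in wild type. On Cy5 alone the changes of these 5 regions were -1.81, -1.28, -1.38, -1.29 and -1.60, in the order first given.

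The 6 regions that were higher in alp13∆ were mrd1 to ist2, exo5 to SPBC685.03, ade7 to meu18, pho7 to tom7, rpl802 to osh2 and rhn1 to ppk27. On Cy5 alone fewer regions were higher, as given at the end. The region mrd1 to ist2 (318 bp, 6 probes), before the gene for the transporter Ist2, averaged 1.08 in alp13∆, 0.28 in asf1-1 and -0.03 in wild type, a change of 1.11 in alp13∆ and 0.31 in asf1-1. Its Cy3 was lower in alp13∆ than in wild type, 1516 against 2311 at the start end and 913 against 1543 at the stop end. The part of Cy3 in its change was not tested. The region pho7 to tom7 (843 bp, 17 probes), before the gene for a subunit of the mitochondrial import receptor, averaged -0.18 in alp13∆, -0.77 in asf1-1 and -0.85 in wild type. Its change lay at the stop of pho7, the gene of a transcription factor of the phosphate response: 1.03 at the stop end and 0.26 at the start end. The region rpl802 to osh2 (1195 bp, 24 probes) averaged 0.98 in alp13∆, 0.62 in asf1-1 and 0.35 in wild type, and its change of 0.63 became -0.083 on Cy5 alone. Regions of at least 6 probes below the threshold that came next were mug93 to git5 (change 0.45) and csc2 to erg32 (0.42), again with the larger part at the stop end (0.60 and 0.61) than at the start end (0.31 and 0.18). The regions exo5 to SPBC685.03 (change 0.88), ade7 to meu18 (0.74) and rhn1 to ppk27 (0.59) hold 4 or 5 probes, lie outside the naming rule and are given because the count is small.

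In asf1-1 the change ran the same way and was smaller. The median level was 0.21 in asf1-1 and 0.45 in wild type, and the median change was -0.28 (quartiles -0.48 and -0.10). Of 268 regions, 41 were lower by at least 1.5-fold (15.3%) and 0 higher (0.0%), against 18.4% lower and 0.0% higher over all gaps and 8.64% lower and 4.9% higher over all probes of the stretch. With no replicate no test was run for this count of 0, and 4 other settings gave 1 to 12 regions higher while the rest gave 0. Of the 41, 4 were lower by at least 2-fold. The median change was -0.28 at the start end and -0.28 at the stop end, and 37 start ends and 43 stop ends were lower by 1.5-fold.

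Among regions with at least 6 probes the lowest change in asf1-1 was in knh4 to apc10 (562 bp, 11 probes), before the gene for a subunit of the anaphase-promoting complex. It averaged -0.79 in alp13∆, -0.82 in asf1-1 and 0.36 in wild type, so both mutants had the same level there. The gap lies next to knh4, the gene downstream of Tf2-10. After sol1 to ldb1 came pfa3 to gua1, before the gene for IMP dehydrogenase of guanine nucleotide synthesis, with -1.71 in alp13∆, -0.93 in asf1-1 and 0.05 in wild type. The region tdh1 to tfb5, after a glyceraldehyde 3-phosphate dehydrogenase gene, averaged -0.82 in alp13∆, -0.32 in asf1-1 and 0.65 in wild type. The region llp1 to mug93 averaged -1.10 in alp13∆, -0.93 in asf1-1 and 0.00 in wild type, with Cy3 of 126 to 290 in its stop end. The highest changes in asf1-1 among regions with at least 6 probes were 0.47 in erg27 to pop8, where alp13∆ had a change of -0.12, 0.43 in pic1 to exo5, 0.36 in csc2 to erg32, 0.31 in mrd1 to ist2 and 0.27 in rpl802 to osh2.

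Set side by side, alp13∆ was the lowest strain, asf1-1 in the middle and wild type the highest in 223 of 268 regions (83.2%). The level in asf1-1 was at least 1.5-fold above that in alp13∆ in 136 regions (50.7%) and below it in 2, against 58.7% and 1.0% of all gaps. All 41 regions that were lower in asf1-1 were also among the 191 lower in alp13∆. The order and this overlap are not given here for all gaps, of which 76.0% were lower in alp13∆ and 18.4% in asf1-1. Neither is read as particular to tandem regions, and the order rests on the centring used. Both changes are taken against the same wild-type array, so a wild-type value that is high by error lowers both.

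The whole-cell extract signal moved with these calls. In 21 regions an end had a median Cy3 under 300 on at least 1 array, and all 21 were lower in alp13∆ and 19 of them in asf1-1. In the other 247 regions, 170 were lower in alp13∆ and 22 in asf1-1. On Cy5 alone 18 of the 21 were lower in alp13∆ and 16 in asf1-1, and 111 and 12 of the 247. Over all 268 regions that made 129 lower in alp13∆ and 28 in asf1-1. The median change in the 21 regions was -1.70 in alp13∆ and -0.67 in asf1-1, against -0.80 and -0.26 in the 247. On Cy5 alone the 21 regions had a median change of -1.16 in alp13∆ and -0.70 in asf1-1, and the 247 had -0.54 and -0.23. The Cy3 signal itself was above wild type in all 21 in alp13∆, by a median of 0.61 on the log2 scale. In asf1-1 it was above in 9 of them, with a median of -0.02. Among the 247 it was above wild type in 222 in alp13∆ (median 0.23) and in 144 in asf1-1 (median 0.03). The level of wild type and its own Cy3 had r = -0.36 (Spearman's rank correlation -0.36) over the 268 regions, and the change had r = 0.61 with the Cy3 of wild type in alp13∆ and 0.56 in asf1-1. These correlations share the wild-type Cy3 on both axes and are descriptions, and the part of Cy3 in the changes was not tested.

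By medians over gene pairs the gap was the low point in alp13∆ and the high point in wild type. For 265 regions the flanking genes could be measured over the last 500 bp of the upstream gene and the first 500 bp of the downstream gene. From the upstream gene through the stop end and start end of the gap to the downstream gene, the medians were -0.10, -0.41, -0.43 and -0.09 in alp13∆. They were 0.19, 0.19, 0.24 and 0.33 in asf1-1, and 0.27, 0.42, 0.53 and 0.39 in wild type. An end of the gap was the highest of the 4 zones in 16 of 265 regions in alp13∆ (9 stop ends and 7 start ends). In asf1-1 there were 65 such regions (31 and 34) and in wild type 122 (51 and 71). The downstream gene was the highest in 126, 123 and 91 regions in the same order, and the upstream gene in 123, 77 and 52. Pair by pair, the highest zone in wild type was thus in a gene more often than in the gap. The first 500 bp of the downstream gene exceeded the last 500 bp of the upstream gene by a median of 0.01 in alp13∆, 0.16 in asf1-1 and 0.20 in wild type. On Cy5 alone, without Cy3 as reference, these medians were 0.31 in alp13∆, 0.46 in asf1-1 and 0.47 in wild type. Where both genes were at least 1500 bp long, so that a gene's start and end lie well apart (106 regions), this difference was -0.08 in alp13∆, 0.25 in asf1-1 and 0.35 in wild type.

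**Figure D3:**
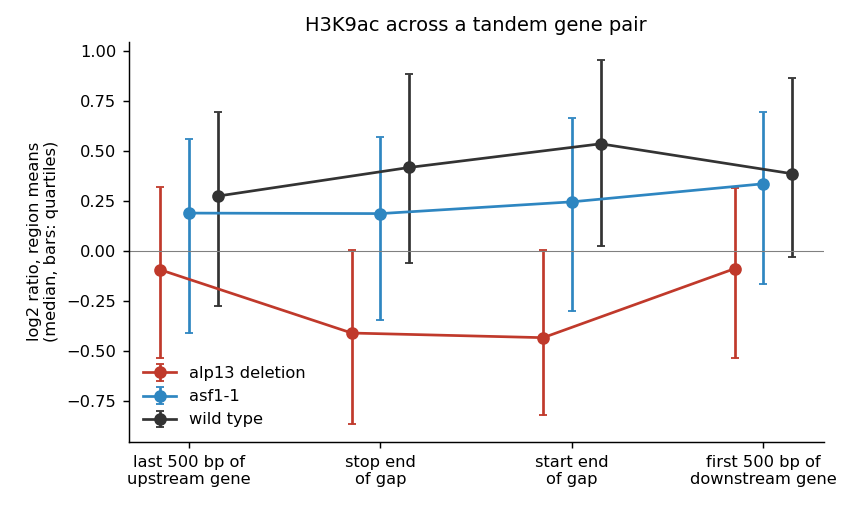
Median over 265 tandem gene pairs of the mean log2 ratio in 4 zones, from the last 500 bp of the upstream gene to the first 500 bp of the downstream gene, with bars from the lower to the upper quartile over pairs. The line of alp13∆ dips in the gap (-0.41 and -0.43) and that of wild type peaks there (0.42 and 0.53), with asf1-1 between them at 0.19 and 0.24.

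By distance, the change faded inside the genes on both sides. In the 100 bp before the gene start the median of probes was -0.33 in alp13∆, 0.29 in asf1-1 and 0.53 in wild type, and in the 100 bp beyond the upstream gene's stop it was -0.33, 0.22 and 0.42. The median change in alp13∆ was -0.82 in the last 100 bp before the start, -0.49 from 200 to 299 bp into the gene, and 0.02 from 600 to 699 bp. In asf1-1 it was -0.25, -0.12 and 0.06 over the same steps. On the stop side the change in alp13∆ was -0.72 in the first 100 bp of the gap, -0.32 from 200 to 299 bp into the upstream gene and 0.10 once 500 bp were passed. In the last 100 bp measured, up to 1000 bp into the gene, alp13∆ was above wild type on both sides, with median changes of 0.38 on the start side and 0.18 on the stop side. In the 42 long gaps the change in alp13∆ lay at -0.99 in the last 100 bp before the start and was lower farther into the gap. In wild type the long gaps stood at 0.43 in the last 100 bp before the start and at 0.15 in the first 100 bp beyond the stop.

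**Figure D4:**
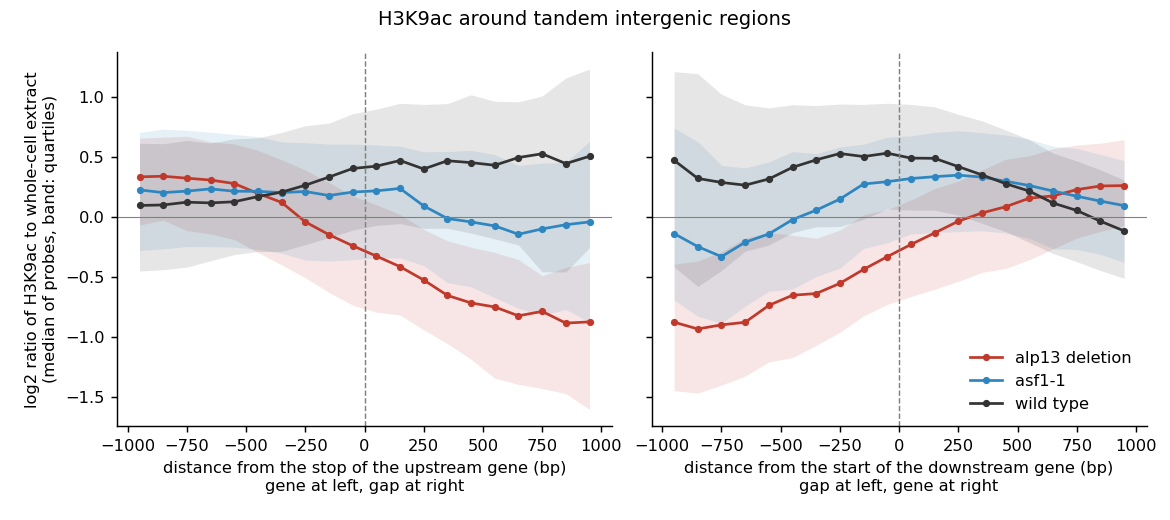
Median log2 ratio of probes in 100-bp steps around the stop of the upstream gene (left panel) and the start of the downstream gene (right panel) of the 337 tandem regions, with bands from the lower to the upper quartile of probes. Deep in the gap alp13∆ lies lowest, at -0.88 in the outermost steps, and about 400 to 700 bp inside the genes it passes above wild type. The outermost gap steps hold 86 and 87 probes, 84 of each from gaps of 1000 bp or longer. The gap steps next to the gene edges hold 652, so the gaps measured differ with distance.

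Set against the other kinds of gap over all lengths, the median level of tandem regions lay between divergent and convergent ones in asf1-1 and wild type. In alp13∆ it lay above both. Median levels of tandem regions were -0.42 in alp13∆, 0.21 in asf1-1 and 0.45 in wild type. Those of the 191 divergent regions were -0.61, 0.30 and 0.70, and those of the 40 convergent regions -0.57, -0.46 and -0.08 in the same order. The median change of tandem regions was -0.85 in alp13∆ and -0.28 in asf1-1, against -1.24 and -0.40 in divergent and -0.48 and -0.26 in convergent regions. Length differs with class: the median was 385.5 bp for tandem, 872 bp for divergent and 321.5 bp for convergent gaps. In gaps under 500 bp the median level in alp13∆ was -0.28 in tandem, -0.30 in divergent and -0.52 in convergent regions. From 500 bp to under 1000 bp the level was -0.61, -0.54 and -1.30, and from 1000 bp on -0.93, -0.79 and -1.06. In alp13∆ tandem regions thus lay above divergent ones only under 500 bp, and by little. Within gaps under 500 bp the median change in alp13∆ was -0.71 in 158 tandem, -1.02 in 43 divergent and -0.36 in 29 convergent regions. From 500 bp to under 1000 bp it was -0.98, -1.14 and -0.46, the last over 7 regions, and from 1000 bp on it was -1.18 in 42 tandem, -1.51 in 80 divergent and -1.26 in 4 convergent regions. In asf1-1 the medians were -0.22, -0.28 and -0.20 in gaps under 500 bp, -0.40, -0.34 and -0.24 in the middle class, and -0.44, -0.54 and -0.29 in the longest, each for tandem, divergent and convergent regions in turn.

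In gaps under 500 bp the median stop end of tandem regions read above the ends of convergent gaps on each array. Over all lengths in alp13∆ the tandem stop end had a median of -0.41, against -0.48 and -0.59 for the ends of convergent gaps. In gaps under 500 bp the tandem stop end had a median of 0.52 in wild type, against -0.06 and -0.04 for the ends of convergent gaps. It was -0.24 in alp13∆, against -0.43 and -0.51, and 0.36 in asf1-1, against -0.46 and -0.41. The tandem start end had 0.53 in wild type, against 0.63 and 0.50 for the ends of divergent gaps. In gaps of 1000 bp or longer the tandem stop end stood at 0.36 and the start end at 0.55 in wild type, against 0.78 and 0.82 for the ends of divergent gaps. No test of these differences could be made with 1 array per strain.

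**Figure D5:**
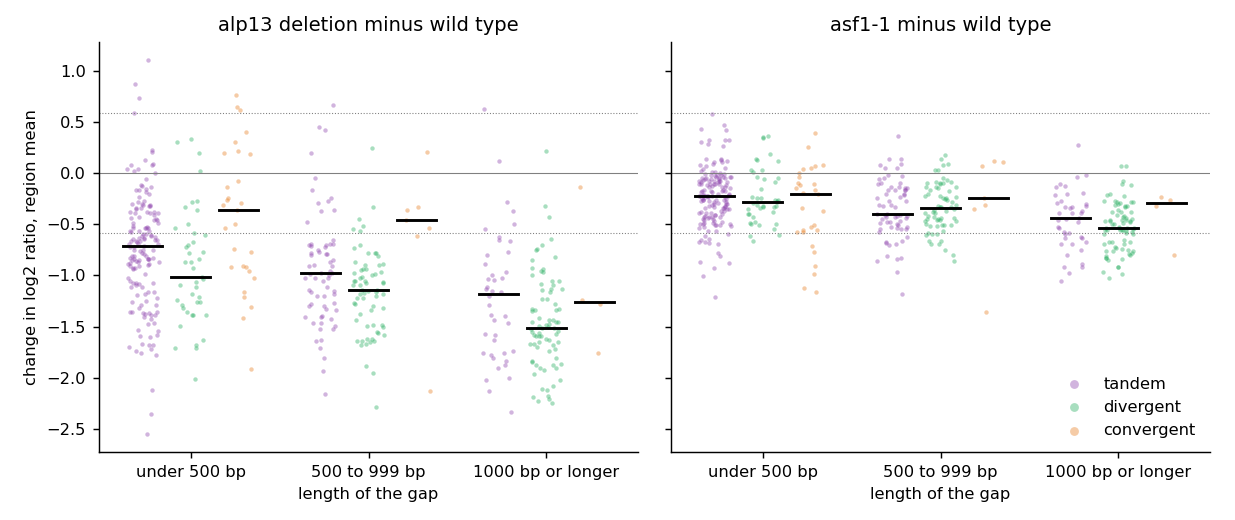
Change in mean log2 ratio of each gap, alp13∆ minus wild type at the left and asf1-1 minus wild type at the right, by length and kind of gap. Points are gaps, black bars medians, and dotted lines the 1.5-fold limits. In alp13∆ the tandem median goes with length through -0.71, -0.98 and -1.18, between divergent and convergent medians in the first and second length class.

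Among the features of the gap and its genes that were set against the change, length had the highest rank correlation, below that of the wild-type Cy3 signal (0.59 in alp13∆ and 0.50 in asf1-1). Over 268 regions the change had a Spearman rank correlation of -0.31 with length in alp13∆ and -0.34 in asf1-1. The rank correlation with GC content was 0.15 in alp13∆ and 0.06 in asf1-1, that with the number of A or T runs per 100 bp -0.11 and -0.13, and that with the length of the upstream gene 0.16 and 0.02, and that with the length of the downstream gene 0.05 and -0.08. The start end was richer in GC (median 32.8%) than the stop end (29.9%) and held fewer runs of at least 6 A or T (0.24 against 0.29 per 100 bp). The letters TATAAA, on either strand within 250 bp before the gene start, stood at 118 of 267 starts that face a tandem region (44.2%) and at 371 of all 873 protein-coding starts of the stretch (42.5%).

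Most tandem gaps are annotated as transcribed: 216 of 268 overlap a lncRNA gene and 48 hold no other annotated gene. Such overlap is not particular to tandem gaps, as 165 of 191 divergent and 20 of 40 convergent gaps had it. The 48 had a median length of 272 bp, a median difference between the ends of 0.00 in alp13∆, 0.00 in asf1-1 and -0.01 in wild type, and a median change of -0.64 in alp13∆ and -0.21 in asf1-1. The 216 had a median length of 422 bp, differences of 0.02, 0.07 and 0.06, and changes of -0.89 and -0.32. Levels hardly followed the strand of the gene pair: the median change in alp13∆ was -0.84 in 153 forward pairs and -0.89 in 115 reverse pairs. The difference between the ends varied with strand. In alp13∆ its median was 0.01 in forward and 0.05 in reverse pairs, with the start end higher in 51.6% and 60.0%. In wild type it was 0.06 and 0.02, with 63.4% and 53.9%, and in asf1-1 0.07 and 0.05, with 59.5% and 60.9%. The 13 regions that hold an LTR or lie beside a mat cassette or a Tf2 element had median levels of -0.97 in alp13∆, -0.57 in asf1-1 and -0.03 in wild type, and 12 of them were lower in alp13∆.

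One tandem region, mat1-Mi to rga7 (1143 bp), was measured in full by near-duplicate probes of the extra contig, 23 on each. Its level was -0.87 and -0.89 in alp13∆, 0.34 and 0.34 in asf1-1 and 0.97 and 0.95 in wild type, on the chromosome and on the contig. The contig repeats the measurement within an array and is no replicate of a strain.

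Grouped by the gene whose start they face, tandem regions of most lists were lower in alp13∆. The lists were chosen with earlier results of these data known. A share near 71.3% in alp13∆ or 15.3% in asf1-1 is that of tandem regions in general. Their median change was -0.85 in alp13∆ and -0.28 in asf1-1. Over all gaps the medians were -1.02 and -0.33, with 76.0% lower in alp13∆ and 18.4% in asf1-1. All 9 regions before cytosolic ribosomal protein genes were lower in alp13∆, with a median change of -1.11, and 1 of 9 was lower in asf1-1, with a median of -0.16. They ran from -2.12 in SPBC365.04c to rpl2101 and -1.68 in app1 to rpl26 to -0.72 in prp5 to rps1002. The longest, rps1402 to rps1601, averaged -1.16 in alp13∆, -0.16 in asf1-1 and 0.27 in wild type, and SPBP4H10.12 to rps2302 averaged 0.67, 1.68 and 1.97. The HomolD box, known as the core promoter element of fission yeast ribosomal protein genes and searched as CAGTCACA on both strands within 250 bp, stood at 5 of these 9 starts and at 20 of all 873 starts (2.29%).

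Before genes of stress response and chaperones 3 of 3 regions were lower in alp13∆ (yea4 to mas5, ned8 to trx2 and arf1 to hsp78, -2.02, -1.63 and -0.98) and 2 of 3 in asf1-1. The 7 regions of the list named for vesicle traffic were all lower in alp13∆, with a median of -0.998, and 0 of 7 in asf1-1. They include rpl8 to vps71, whose gene is known for a subunit of the Swr1 chromatin remodeller, and put2 to sec28, the lowest at -1.70. Before splicing genes 5 of 6 were lower in alp13∆ and 1 in asf1-1, the exception in alp13∆ being pwp1 to prp16 at 0.08. In cwf22 to cwf24 the change in alp13∆ was -1.78 at the start end and -0.09 at the stop end, and the start-end Cy3 was 113 to 212.

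Before meiotic genes 5 of 7 regions were lower in alp13∆ and 1, ade7 to meu18, was higher at 0.74, with a median of -0.69, and 1 of 7 was lower in asf1-1. The lowest was ccp1 to mug20 at -1.38, and atp7 to rec8, before the gene of a meiotic cohesin, had -1.18. Before cell cycle and replication genes 3 of 7 were lower, tam10 to cdc18 (-0.77), mmp2 to cdc10 (-1.08) and wwm1 to cdc2 (-0.61), with a median of -0.45, and 0 of 7 in asf1-1. The 1 glycolytic member, pgm1 to tdh1 (3107 bp, 63 probes), averaged -0.23 in alp13∆, 0.14 in asf1-1 and 1.05 in wild type, and was lower in both mutants by -1.29 and -0.92. The 2 regions before sterol synthesis genes passed the limit in neither mutant, with csc2 to erg32 at 0.42 and dus2 to erg27 at -0.34 in alp13∆. Before genes of ribosome biogenesis 1 of 2 regions was lower in alp13∆ (vps71 to utp18, -1.25, with mrpl10 to nop52 at -0.05), as were the 1 region of the proteasome list (SPBC23G7.13c to rpt6, -1.05) and that of the mitochondrial ribosome (ebs1 to mrpl7, -0.86). No histone gene start faces a tandem region of this stretch.

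The longest tandem region was rpl26 to isp4, 5387 bp with 106 probes before the gene of the oligopeptide transporter Isp4. It averaged 0.17 in alp13∆, 1.18 in asf1-1 and 1.63 in wild type. From 2500 to 2999 bp before isp4 the means were 0.58 in alp13∆, 1.72 in asf1-1 and 2.41 in wild type. In the last 500 bp before isp4 the order turned, with 0.70 in alp13∆, 0.35 in asf1-1 and 0.44 in wild type, although this is the end next to the gene start. Its change in alp13∆ was -1.17 at the start end and -1.74 at the stop end.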

How the data were processed

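Chromatin immunoprecipitated with an H3K9ac antibody (Cy5) and whole-cell extract (Cy3) were read on 1 two-colour Agilent array for each of 3 strains. The deposited scanner files hold intensity values made by Agilent Feature Extraction 10.7.3.1, background-subtracted and dye-normalised per the file headers. No genome build was named there. The deposited log10 ratio column was not used further. The deposited value table holds a score whose scale, centring and direction stay unknown: its column medians were 0.114 for wild type, 0.0849 for alp13∆ and -0.0204 for asf1-1, their correlations with the labelled array were 0.225, 0.528 and -0.58, and it was not used.

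From the intensities the log2 ratio of Cy5 over Cy3 was taken, 43912 of 43993 probes that are not control spots were kept after those with an outlier mark were left out, and each array was centred on its median. No loess was applied. Probes were placed on ASM294v3 with a constant offset on each side of a break, checked by correlating Cy3 with local base composition (r = 0.571 over 11938 probes and 0.544 over 27944). Regions needed at least 4 probes and 2 in each end, and a call needed a 1.5-fold difference. With 1 array per strain no test was possible. Columns of samples outside the series numbered 0.

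Named regions are, among 183 with at least 6 probes, the 5 highest and 5 lowest by the difference of the ends in wild type and by each mutant's change, the 3 longest, those matched by the extra contig, and the 3 with most probes of each gene list. Other members of lists and of small counts were named after their values were seen. The regions and lists were chosen with earlier results of these data known. Alternatives were other centrings, background correction, Cy5 alone, probe minimums, region edges and thresholds, and 2 of them were added after seeing the data. The steps were tested on simulated data. Python 3.11.15, numpy 2.4.6, pandas 2.3.3, scipy 1.17.1, R 4.3.3 and limma 3.58.1 were used.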

Additional observations from a re-analysis of the deposited data

How the results depend on the processing

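No paired analysis was possible because each strain has 1 array. The sign of the changes depends on the centring. With no centring the median change was -0.44 in alp13∆ and -0.12 in asf1-1, so the sign stayed. There were then 11 regions higher and 109 lower in alp13∆, and 4 higher and 20 lower in asf1-1. With centring on probes between genes, those of tandem regions included, the median change was 0.37 and 0.15. There were then 84 regions higher and 14 lower in alp13∆, and 12 higher and 3 lower in asf1-1. Taking Cy5 alone, the start end exceeded the stop end by 0.22 in asf1-1 and 0.22 in wild type, the gene start exceeded the gene end by 0.31 in alp13∆, 0.46 in asf1-1 and 0.47 in wild type, the wild-type level of tandem regions differed from divergent ones by -0.11 and from convergent ones by 0.81, the change in alp13∆ was -0.56, and 1 region was higher in alp13∆. Comparisons of different probes on Cy5 alone, as between ends or kinds of gap, carry the Cy3 difference of those probes. Single values that turned sign on Cy5 alone were the wild-type end differences of ned8 to trx2 (-1.44) and pom152 to gas2 (3.69). The change of rpl802 to osh2 in alp13∆ also turned (-0.083). With coding sequence edges the change in alp13∆ was -0.63, the start-end change minus the stop-end change was -0.20, and tandem minus convergent was 0.69 for the wild-type level, -0.80 for the change in alp13∆ and -0.26 in asf1-1. In regions with no other annotated gene the gene start minus gene end in asf1-1 was -0.064, tandem minus convergent level 0.30, the change in alp13∆ -0.64 with 2 higher and 27 lower, and 4 were lower in asf1-1. In regions of 1000 bp or longer tandem minus divergent level was -0.40, the change was -1.18 in alp13∆ with 1 higher and 36 lower, and -0.44 in asf1-1 with 14 lower. With normexp, run on spot medians because mean signals were not in the files used, tandem minus convergent change was -0.22 in alp13∆ and 0.19 in asf1-1, the change in asf1-1 was -0.19 and 3 regions were higher. With at least 2 probes tandem minus convergent change in alp13∆ was -0.54. With at least 8 probes it was -0.12 in asf1-1, and changes were -1.02 in alp13∆, with 2 higher and 110 lower, and -0.39 in asf1-1. At 2-fold 1 region was higher and 107 lower in alp13∆ and 4 lower in asf1-1. With arrays at 1 spread 1 region was higher in asf1-1, and with Cy3 of at least 300 in both ends 22 were lower. The causes were not tested. Of 442 alternative values of named regions, 438 kept their sign, and 135 moved by more than the repeat error of 1 probe. Single arrays, fragments longer than most gaps, and dim Cy3 limit the precision.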
